A study of Rattus norvegicus with 110 samples.

Results

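The comparison described here was that of low-dose carbon tetrachloride (CCl4) with vehicle in the liver of cohort C, the F2 rats whose F0 grandsire, but not F1 sire, had been treated. Its members were the liver libraries of groups 17 and 18, chosen by the group number that opens each animal number, and there were 13 of them among 83 liver libraries and 110 samples in all. All animals were male outbred Sprague Dawley rats born to naive dams. The F0 grandsire had received 50% (v/v) CCl4 in olive oil for 6 weeks with 2 weeks of recovery before mating, and the F1 sire had received olive oil alone. At 9 to 11 weeks of age the F2 males were gavaged 3 times per week with 0.5 mL/kg of olive oil (group 17, n = 6) or of 8% (v/v) CCl4 in olive oil (group 18, n = 7), and liver was taken on day 39, 24 h after the last dose. Both groups therefore carried the same ancestral exposure and differed in the F2 dose. Each F2 group had 10 males, of which 7 were chosen for sequencing. A vehicle male of group 17 (animal17005) was euthanised before the end and excluded by the study, and 6 livers of group 17 were analysed here. The groups shared 3 litters, and each litter was necropsied on a single date of 4, with rats of both groups on every date.

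CCl4 is made toxic by cytochrome P450 2E1, which is most abundant in the hepatocytes around the central vein, so that the injury starts in that zone. The same ring of hepatocytes expresses glutamine synthetase, the enzyme that captures the ammonia left over from the urea cycle upstream. Repeated dosing is a standard way to induce centrilobular injury and fibrosis, in which macrophages clear debris and stellate cells lay down matrix. The question the comparison addresses is which liver transcripts a mild dose moves in rats with an ancestral exposure, and how far single animals carry those differences.

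The 13 libraries held 31738726 to 45414251 estimated read counts. TMM scaling factors ran from 0.769 to 0.859 in group 17 and from 0.837 to 1.004 in group 18, so they were mostly lower in the vehicle group. Within a group, no pair of libraries agreed within sampling noise (chi-square per degree of freedom at least 38.0 over 36 pairs), and each was counted as 1 sample. Against the mean of its own group, the correlation of log2 normalised counts was lowest in animal17004 (0.962) and animal17002 (0.968), with 0.974 in animal18010 and 0.980 to 0.988 in the other 10. These 3 libraries recur in the results, and values without them are given where a call depends on them. None of the 12 hepatocyte markers on the list used here had a symbol in the table that pairs identifiers with names, so the tissue label could not be checked against them. In bulk liver, fewer cells of a type and less RNA per cell cannot be told apart.

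Of the genes tested in the fit over all 12 liver groups, 637 rose (3.35%) and 211 fell (1.11%) in group 18 at an adjusted p under 0.1 and a log2 fold change beyond 1. With the adjusted p alone, 1175 were higher (6.18%) and 782 were lower (4.11%). The rises and the falls were of different kinds. The genes that rose had a median normalised count of 30.6 over the 13 libraries, and 242 of them exceeded 50. The genes that fell had a median of 4.08, and 26 of them exceeded 50. Group 18 lay above group 17 in every library for 229 of the 637 rises, against 1.76% of all genes tested, and group 18 lay below group 17 in every library for 10 of the 211 falls, against 0.300% of all genes tested. In 562 of the 637 rises (88.2%) the mean log2 level was higher in group 18 on all 4 necropsy dates, and in 51 of the 211 falls (24.2%) it was lower on all 4. Over all genes tested these shares were 13% and 7.81%. The genes were called on these same 13 libraries. Their excess over all genes tested, by date and in overlap, thus largely restates the choice and is given as a description. With groups 17 and 18 alone in the fit, the counts were 414 rises and 24 falls, and with litter as a block they were 426 and 35. With animal17002 and animal17004 both left out, an alternative added after the data were seen, they were 423 and 24.

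**Figure D1:**
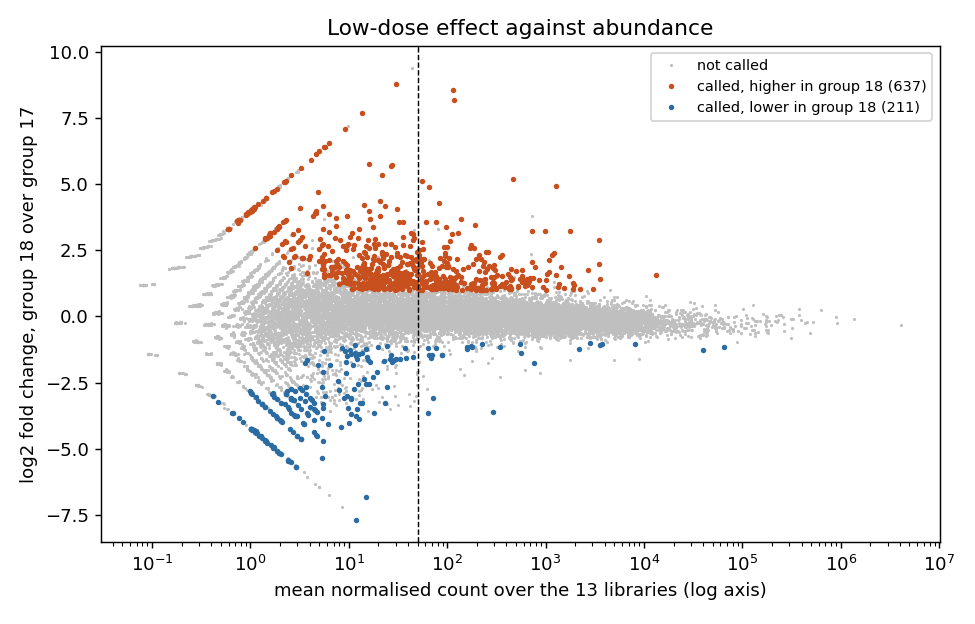
Each point is a gene tested, with its mean normalised count over the 13 libraries on a log axis against the log2 fold change of group 18 over group 17, and the dashed line marks a mean of 50. The 637 genes called higher spread across abundances, whereas only 26 of the 211 genes called lower lie to the right of the line.

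Gene names were available for 1487 of the genes tested. These are genes that the study listed for a possible effect of the F0 treatment, mostly in liver libraries that include these samples, so they are no cross-section of the liver. Among them 11 rose (0.740%) and 3 fell (0.202%), below the share over all genes tested in both directions.

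Glul, which encodes glutamine synthetase, was the fall with a name that separated the groups. Its normalised count was 8290 at the lowest, 10610 at the median and 16550 at the highest in group 17, and 3404, 5430 and 7526 in group 18. The highest treated rat lay below the lowest vehicle rat. The log2 fold change was -1.05 ± 0.19 (SE; edgeR quasi-likelihood test, Benjamini-Hochberg adjusted p = 0.000182). The mean was lower in group 18 on each date, with 10290 against 5716 on date 1, 9279 against 6748 on date 2, 10790 against 4919 on date 3 and 13500 against 4120 on date 4. The adjusted p passed under all 24 alternatives, with log2 fold changes between -1.15 and -0.91 and adjusted p (edgeR, DESeq2 or limma) of at most 0.00588, although the change was smaller than the fold minimum in some. Without animal17002 and animal17004 it was -1.08 (edgeR adjusted p = 0.00111).

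Windows of 300 bases around RefSeq starts (250 before and 50 after, build GRCr8) are shown for Glul, and for Cyp2c24 and Psat1, the members of the CYP and stress lists that rose. Glul has a window at each of its RefSeq starts, chr13:68519250-68519549 and chr13:68575816-68576115 on the plus strand. The windows of Cyp2c24 (chr1:246286091-246286390, plus strand) and Psat1 (chr1:222645359-222645658, minus strand) are read on the strand of the gene. Capitals mark matches, on either strand, to TATAAA (in 14.2% of all 33469 windows), GGGCGG (33.1%), CCAAT (37.5%) and ATCAAAG, the core of the TCF/LEF motif (3.63%).
Glul upstream start: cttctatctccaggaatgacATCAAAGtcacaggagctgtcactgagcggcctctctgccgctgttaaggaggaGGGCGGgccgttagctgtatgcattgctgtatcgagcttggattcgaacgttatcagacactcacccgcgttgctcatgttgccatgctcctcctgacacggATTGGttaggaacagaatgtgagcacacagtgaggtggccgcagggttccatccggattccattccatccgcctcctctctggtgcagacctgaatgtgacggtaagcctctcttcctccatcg
Glul downstream start: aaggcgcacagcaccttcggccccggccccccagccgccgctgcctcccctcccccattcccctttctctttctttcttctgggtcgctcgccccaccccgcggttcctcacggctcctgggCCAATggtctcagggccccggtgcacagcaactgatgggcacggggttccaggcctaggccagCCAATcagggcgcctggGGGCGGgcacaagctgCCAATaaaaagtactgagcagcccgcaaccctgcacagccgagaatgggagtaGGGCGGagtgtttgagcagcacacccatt
Cyp2c24: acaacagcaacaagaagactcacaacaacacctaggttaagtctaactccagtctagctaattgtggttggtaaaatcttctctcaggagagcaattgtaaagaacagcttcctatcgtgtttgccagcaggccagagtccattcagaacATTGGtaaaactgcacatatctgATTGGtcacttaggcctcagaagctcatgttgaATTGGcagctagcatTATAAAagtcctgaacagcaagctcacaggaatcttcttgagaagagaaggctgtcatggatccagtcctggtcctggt
Psat1: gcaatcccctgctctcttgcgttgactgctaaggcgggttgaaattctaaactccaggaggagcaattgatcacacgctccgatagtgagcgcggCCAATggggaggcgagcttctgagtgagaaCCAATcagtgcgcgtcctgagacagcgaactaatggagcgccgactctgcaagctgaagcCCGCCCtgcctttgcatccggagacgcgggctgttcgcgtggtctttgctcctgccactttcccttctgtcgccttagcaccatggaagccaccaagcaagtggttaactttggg
The TATAAA letters are in the Cyp2c24 window and ATCAAAG is in the upstream Glul window. These matches describe the letters and say nothing of whether a factor binds there.

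**Figure D2:**
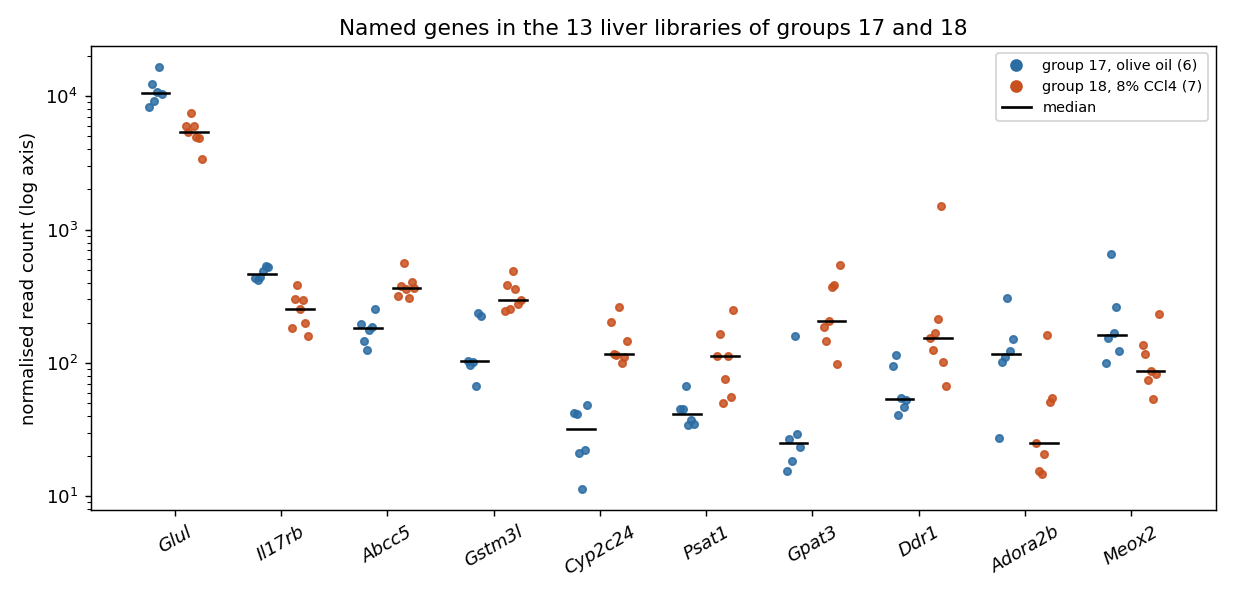
Each point is the normalised count of a gene in a library on a log axis, blue for the 6 rats of group 17 and orange for the 7 of group 18, with a bar at the group median. Glul, Il17rb, Abcc5, Gstm3l and Cyp2c24 do not overlap between groups, whereas single points set apart Gpat3 in group 17 and Ddr1 in group 18.

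The largest separated fall among genes over a mean count of 50 was a gene without a name in the sources used here, ENSRNOG00000004725.6. It had a normalised count of 329.6 at the lowest, 414.5 at the median and 1256 at the highest in group 17, and 26.3, 45.2 and 79.7 in group 18. Every treated rat was below every vehicle rat, and its log2 fold change was -3.62 ± 0.44 (SE; edgeR adjusted p = 6.17e-09), the call holding under all 24 alternatives. ENSRNOG00000040151.4 fell too, from 21.8, 61.4 and 353 in group 17 (lowest, median, highest) to 0, 7.91 and 36.4 in group 18. These groups overlapped, and the log2 fold change was -3.63 ± 1.13 (SE; edgeR adjusted p = 0.042).

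Adora2b and Meox2 were the other named falls, and neither separated the groups. Adora2b, the adenosine A2b receptor, had 27.5, 116.1 and 306 normalised counts in group 17 (lowest, median, highest) and 14.6, 24.9 and 163 in group 18. Its log2 fold change was -1.47 ± 0.54 (SE; edgeR adjusted p = 0.086), and without animal17004 it was -1.53 with an adjusted p of 0.122. The adjusted p also missed the threshold without animal17007 (0.253) and without animal18001, animal18002, animal18003, animal18004 or animal18008 (0.119 to 0.184), and without animal17002 and animal17004 together (0.164). With groups 17 and 18 alone it was 0.24. Meox2, a homeobox transcription factor, was at 655 in animal17004 and between 100.5 and 262 in the other 5 vehicle rats, against 53.9 to 233 in group 18. Its log2 fold change of -1.12 (edgeR adjusted p = 0.0943) became -0.53 (adjusted p = 0.631) without animal17004. Its adjusted p lay between 0.108 and 0.187 without animal17009, animal18002, animal18003, animal18004, animal18006 or animal18008, and with litter as a block the log2 fold change was -0.57 (adjusted p = 0.563).

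Several named genes passed the adjusted p with a change under the fold minimum, and those given here were chosen after their values were seen. Il17rb, a receptor for the cytokine IL-25, ranged from 417 to 533 in group 17 (median 463) and from 159.9 to 383 in group 18 (median 253). The groups did not overlap, the log2 fold change was -0.89 ± 0.21 (SE; edgeR adjusted p = 0.00585), and the pass held under all 24 alternatives. Neu3, a ganglioside sialidase, had a log2 fold change of -0.57 ± 0.14 (edgeR adjusted p = 0.00899), with animal17004 the lowest vehicle rat at 171 and treated rats from 129 to 194, and with litter as a block it was -0.48 (adjusted p = 0.11). Bpnt1, a phosphatase of sulphation by-products, was 1123 to 1292 in group 17 and 875 to 1055 in group 18, without overlap, and its adjusted p was 0.101 without animal18003 and 0.143 without animal17002 and animal17004, 0.132 with litter as a block and 0.106 with groups 17 and 18 alone.

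Rises with a name and a mean count over 50 numbered 10. Cyp2c24, a cytochrome P450 of the 2C family, was at 11.3, 31.8 and 48.1 in group 17 (lowest, median, highest) and at 100.3, 117.6 and 265 in group 18. No treated rat reached down to the vehicle range, and the log2 fold change was 2.28 ± 0.59 (SE; edgeR adjusted p = 0.0114). Gstm3l, a mu-class glutathione S-transferase, went from 66.8, 102.9 and 237 to 246.5, 298 and 489. Its groups did not overlap, although the margin was small (log2 fold change 1.25 ± 0.35, edgeR adjusted p = 0.0211). Abcc5, an ATP-driven exporter of cyclic nucleotides and organic anions, rose from a median of 181.5 (range 126 to 252) to 368 (range 309 to 558), again without overlap. It had the smallest adjusted p of the named rises (edgeR, 0.00036, log2 fold change 1.09 ± 0.21), and its lowest log2 fold change over the alternatives was 0.92.

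Psat1, which makes serine from a glycolytic intermediate and is induced by the integrated stress response, was between 34.0 and 67.7 in group 17 (median 41.2) and between 50.1 and 248 in group 18 (median 112). The groups overlapped, since animal18003 (50.1) and animal18008 (55.1) were below animal17004, the highest vehicle rat, and on date 2 the means were 67.7 and 62.8. The log2 fold change was 1.41 ± 0.33 (edgeR adjusted p = 0.00496). Gpat3, which commits glycerol-3-phosphate to triglyceride synthesis, was between 15.6 and 29.3 in 5 vehicle rats and at 159 in animal17007, against 97.8 to 544 in group 18 (log2 fold change 2.60 ± 0.72, edgeR adjusted p = 0.0214). Treated rats were thus above all but a single vehicle rat. Ddr1, a collagen-activated receptor kinase, was at 1505 in animal18006 and between 67.6 and 212 in the other 6 treated rats, with 40.9 to 115 in group 17. Its log2 fold change of 2.30 ± 0.60 (edgeR adjusted p = 0.0124) became 1.04 with an adjusted p of 0.281 when animal18006 was left out, and 1.05 with an adjusted p of 0.369 with litter as a block. No group 17 rat here was a littermate of animal18006, so the litter fit also draws little on that rat. The fit of groups 17 and 18 alone gave 2.29 (adjusted p = 0.113).

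Unc5b, a netrin receptor, rose from a median of 218 (range 93.1 to 345) to 499 (range 294 to 653), with animal18010 the treated rat within the vehicle range. Phldb1, a protein that anchors microtubules at the cell cortex, rose from 125 to 232 at the median, and animal18010 was again the treated rat inside the vehicle range. The log2 fold change of Phldb1 was 1.01 ± 0.25 (edgeR adjusted p = 0.00926), just past the fold minimum. It lay between 0.88 and 1.11 over the 24 alternatives, so it went under that minimum in some while the adjusted p passed in all. Map3k6, a stress-activated kinase, rose from 22.9 to 71.9 at the median, and Slfn4, a myeloid schlafen protein, from 1069 to 2940, both with overlap. The adjusted p of Slfn4 was 0.0926 and the pass held under 11 of 24 alternatives, so this rise is the least firm of the 10. P2rx5, an ATP-gated channel, was the other called rise with a symbol and had a mean count under 50. With animal17002 and animal17004 both left out, the edgeR adjusted p was 0.19 for Gstm3l, 0.172 for Gpat3, 0.131 for Unc5b and 0.124 for Map3k6, none of them under 0.1, with 4 vehicle rats in place of 6. The log2 fold changes were then 1.06 for Gstm3l against 1.25 with all libraries, 2.28 against 2.60 for Gpat3, 0.87 against 1.16 for Unc5b and 1.4 against 1.61 for Map3k6. The adjusted p of Slfn4 missed the threshold without animal17001, animal17002, animal17007, animal18002, animal18003, animal18004 or animal18006, at 0.108 to 0.215, and was 0.218 without animal17002 and animal17004 together. With litter as a block, the adjusted p was 0.114 for Unc5b, 0.222 for Map3k6 and 0.215 for Slfn4, with log2 fold changes of 1.04, 1.3 and 1.11.

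The largest rises over a mean count of 50 had no name here. ENSRNOG00000005954.3 was between 0 and 1.46 normalised counts in group 17 and between 38.6 and 471 in group 18, with a median of 164. ENSRNOG00000009528.4 was at 0 in 5 vehicle rats, at 2.8 in animal17004 and between 37.2 and 723 in group 18. Neither overlapped, and the edgeR adjusted p values were 2e-08 and 2.33e-05.

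Several named genes, also chosen after their values were seen, passed the adjusted p with a small increase and no overlap between groups. Over all genes tested, group 18 lay wholly above group 17 in 1.76%. Lgmn, a lysosomal cysteine protease, was 2061 to 2666 in group 17 and 2748 to 3863 in group 18 (log2 fold change 0.52 ± 0.15, edgeR adjusted p = 0.0251). Ctsd, the lysosomal aspartic protease, was 8465 to 9965 and 10360 to 14020 (0.34 ± 0.12, adjusted p = 0.0695). Plau, the urokinase that activates plasminogen, was 125 to 204 and 238 to 426 (0.90 ± 0.23, adjusted p = 0.0119). Lgmn, Ctsd and Plau were each higher in group 18 on all 4 dates. Marcks, an actin-binding substrate of protein kinase C, Mgat4a, a glycosyltransferase, and Ptk2b, a focal adhesion kinase, did not overlap either, with log2 fold changes of 0.70, 0.69 and 0.57. Of these 6, Lgmn, Ctsd and Ptk2b had adjusted p of 0.137, 0.235 and 0.339 without animal17002 and animal17004, with log2 fold changes of 0.48, 0.34 and 0.51. Mgat4a had 0.121 without animal18003. Ctsd had 0.111 to 0.146 without animal17004, animal18001, animal18003 or animal18006, and Ptk2b had 0.11 to 0.179 without animal17002, animal17004, animal17010, animal18003, animal18004 or animal18006. With litter as a block, Ctsd had 0.251 and Ptk2b 0.344.

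The falls at low counts were then traced to libraries. In the 211 falls, the highest of the 13 libraries was animal17002 for 137 genes and animal17004 for 43, and the other 4 vehicle rats shared 31. The highest vehicle library held a median of 84.7% of the group 17 total of a gene that fell, whereas the highest treated library held a median of 24% of the group 18 total of a gene that rose. In 41 of the falls, all 7 treated libraries were at 0 counts, so their fitted fold changes are not given. The highest library among the 637 rises was spread over all 7 treated rats, from 22 genes in animal18008 to 163 in animal18010.

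**Figure D3:**
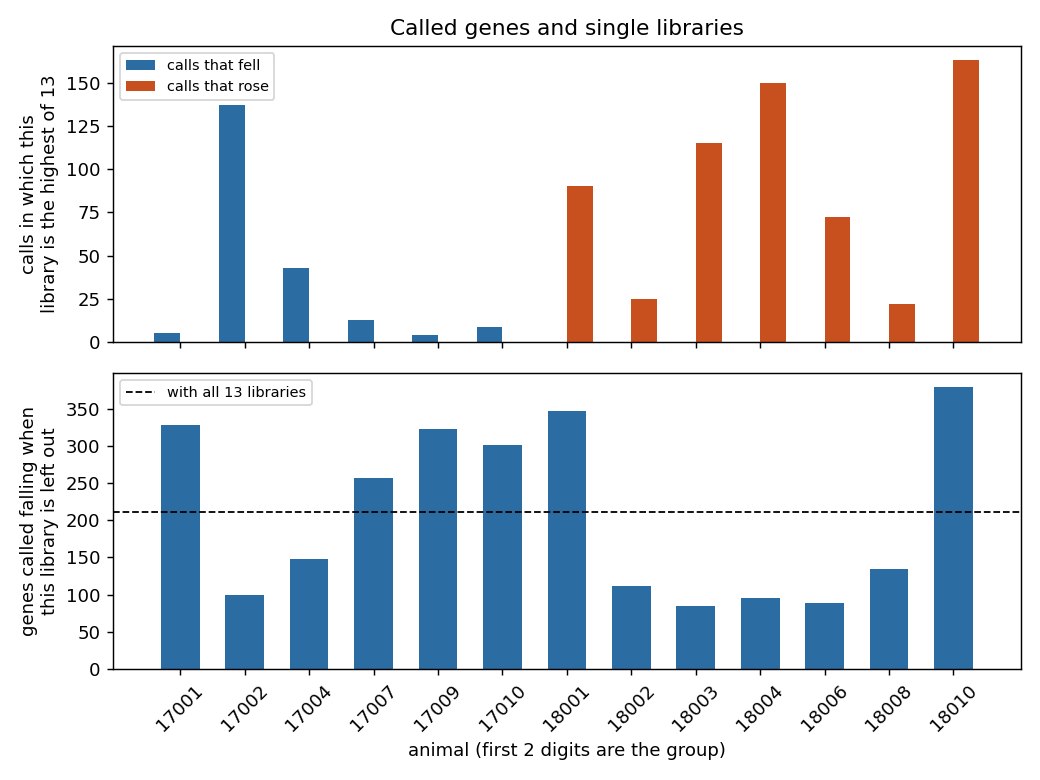
The upper bars count, for each library, the called genes in which it is the highest of the 13, blue for the 211 falls and orange for the 637 rises. The lower bars give the number of genes called falling when that library is left out, from 84 without animal18003 to 380 without animal18010, with the dashed line at 211.

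Leaving out a library moved the number of falls in both directions. Without animal17002 there were 99, and 140 of the 211 calls were lost. Without animal17004 there were 148, and 69 calls were lost, 25 of them also lost without animal17002. The count was 328 without animal17001, 323 without animal17009, 257 without animal17007 and 301 without animal17010. Leaving out a treated rat gave 347 without animal18001, 112 without animal18002, 84 without animal18003, 96 without animal18004, 88 without animal18006, 135 without animal18008 and 380 without animal18010. The rises ranged from 490 to 706 over the same 13 fits, within 1.5 times of 637. The falls called with all libraries and without each in turn were 12 of 211, and the corresponding rises were 363 of 637. Of the 24 alternatives, every one called 4 of the falls and 236 of the rises.

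Those 4 falls were ENSRNOG00000004725.6 and ENSRNOG00000040151.4, described above, with ENSRNOG00000051611.1 and ENSRNOG00000026940.6, named after their values were seen. ENSRNOG00000051611.1 was at 8.82, 27.4 and 80.4 normalised counts in group 17 (lowest, median, highest) and at 0, 0 and 1.13 in group 18. ENSRNOG00000026940.6 was at 2.42, 17.8 and 28.2 in group 17 and at 0, 0 and 2.60 in group 18. Glul was not among the 4, because its change went under the fold minimum in some fits while its adjusted p passed in all.

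The 137 falls that were highest in animal17002 are described next. They were chosen for that library, so its excess over the other 12 and the calls lost without it largely restate the choice and are given as a description. Their normalised counts in animal17002 had a median of 32.7, with quartiles of 19.4 and 60.6, whereas the median gene averaged 0.526 over the other 5 vehicle rats and 0.358 over group 18. In 83 of them animal17002 was at least 10 times the next of the 13 libraries. Added up, the 137 genes came to 7368 normalised counts in animal17002, 305 in its littermate animal17001, 245 to 439 over the other 5 vehicle rats and between 175.5 and 577 in the 12 other libraries, the highest of those being animal18001. None of the 137 had a symbol, and 136 of the 137 calls were lost without animal17002. The example with the highest count, ENSRNOG00000007568.6, was at 433 in animal17002 and between 38.1 and 72.4 in the other 12.

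The same genes were looked at in the 70 liver libraries of the other 10 groups. These were in the fit that made the calls and so bore on the spread and the filter, but the choice of the highest library was among the 13 alone. A group 15 rat (animal15002, 8% CCl4) summed to 3599, with 128 of the 137 genes at 3 or more normalised counts, and a group 20 rat (animal20001, olive oil) to 2811, with 111. By necropsy date, the 20 libraries of date 1 had a median sum of 409 (range 200.4 to 3599) and the 50 of the later dates a median of 267 (range 178.6 to 816). Besides animal17002, 6 libraries of the 83 had 60 or more of these genes at 3 or more counts, and 5 of them were from date 1. The liver of animal17002 was the highest of all 83 for 128 of the 137 genes. In its kidney, 29 of the 137 were at 3 or more normalised counts, within the range of 27 to 51 (median 32) over 27 kidneys. Whether these genes mark a cell type was not tested, since none has a name, and the part of tissue sampling on that date was not tested.

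**Figure D4:**
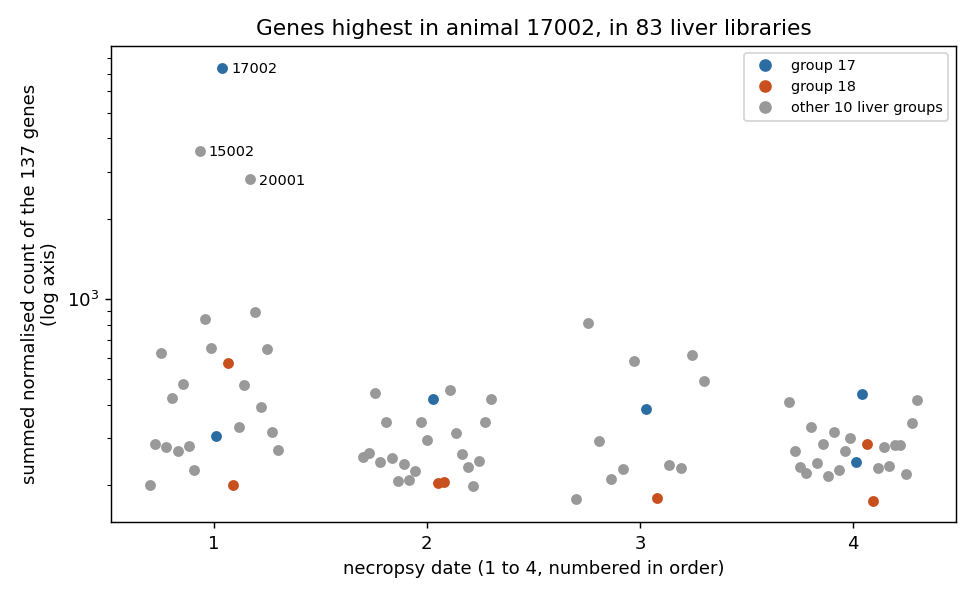
Each point is a liver library, with the summed normalised count of the 137 genes on a log axis against necropsy date, blue for group 17, orange for group 18 and grey for the other 10 groups. The livers of animal17002, animal15002 and animal20001 stand highest, at 7368, 3599 and 2811, and the next library is at 897.

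The library of animal17004 differed in another way. Over 12254 genes with a mean normalised count above 50, the Spearman correlation between transcript length and the deviation of a library from the rest of its group was -0.663 in animal17004, the lowest of 83 livers, followed by -0.563 in animal14005. The median over the 83 was 0.121. In groups 17 and 18 the other negative values were -0.485 in animal18010 and -0.224 in animal18001. Short transcripts were thus relatively high and long ones relatively low in animal17004. The median length of genes that fell was 1247 bases, against 1666 over all genes tested and 2136 for genes that rose. That length was not split by library. Of the genes that fell, 137 were highest in animal17002, where the correlation was 0.359, and 43 in animal17004. Each correlation is over genes of 1 library, which are not replicates, and the part of transcript length in the calls was not tested.

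The smaller changes leaned on animal17004 more than the called ones did. Among the 782 genes lower at the adjusted p alone, animal17004 was the highest of the 13 for 575, and without it 181 genes were lower, 169 of them shared with the 782. Among the 1175 higher genes it was the lowest of the 13 for 391, and without it 874 were higher. Named examples, chosen after their values were seen, show both sides. Pisd, which makes phosphatidylethanolamine in mitochondria, was at 1000.6 in animal17004, 497 to 557 in the other vehicle rats and 405 to 543 in group 18. Notch1, the receptor, was at 402 in animal17004, 710 to 1042 in the other vehicle rats and 567 to 1426 in group 18. Nup214, a nuclear pore protein, was at 224 in animal17004, 578 to 702 in the others and 450 to 872 in group 18. Their log2 fold changes were -0.33, 0.50 and 0.41 (edgeR adjusted p = 0.0716, 0.0731 and 0.0766), and without animal17004 they were -0.12, 0.36 and 0.25, with adjusted p of 0.658, 0.293 and 0.36. The pass held under 15, 13 and 15 of 24 alternatives. The count of lower genes also depended on treated rats, with 214 without animal18003 and 2005 without animal18010.

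The gene lists were then read, as far as their members had symbols. Clock genes had 10 of 20 members with a symbol and glucocorticoid-induced and fasting genes 10 of 20, and none passed the adjusted p in either direction, where 4.03% of genes with a symbol were higher and 1.68% lower. Dbp, the clock output factor, was 133 to 414 in group 17 and 105 to 239 in 6 treated rats, with 1453 in animal18002. Zbtb16, a glucocorticoid-induced transcription factor, was 86 to 793 in group 17 and 75 to 1268 in group 18, and its log2 fold change was -0.22 ± 0.71 (edgeR adjusted p = 0.899). The SE was 0.57 for Dbp and 0.18 for Cry2, a clock repressor with a log2 fold change of -0.11, so the precision differed widely among these genes. Of the 9 genes with a symbol among those the study names, none passed, and they included the bile acid transporter Slc10a2 (62.2 to 146 against 73.0 to 138) and the lipid phosphatase Lpin1 (1235 to 3413 against 1391 to 4667).

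Marker lists of other cell types gave little to read. Macrophage and Kupffer cell markers had 4 of 20 members with a symbol, Adgre1, C1qb, Cd14 and Cd163, and none passed. Cd163, a scavenger receptor of resident macrophages, was 786 to 2272 in group 17 and 1369 to 2258 in group 18. Endothelial markers (Kdr, Stab1) and the single named stellate (Lhx2), lymphocyte (Cd4), adipocyte (Cidec) and erythroid (Tfrc) markers did not pass either. Neutrophil, mesothelial, muscle, pancreas, intestine and kidney markers had no member with a symbol. Of the CYP and CCl4 metabolism list, 3 of 31 members had a symbol and Cyp2c24 rose, while Cyp1a1 and Cyp1a2 did not pass. The stress response list held Psat1, which rose, and Herpud1 (log2 fold change 0.17 ± 0.20). Matrix genes had Tgfb2 alone (0.68 ± 0.33, edgeR adjusted p = 0.203). Of chemokines, Ccl2, which recruits monocytes, was 7.56 to 90.3 in group 17 and 26.2 to 242 in group 18 (1.62 ± 0.69, edgeR adjusted p = 0.147), and Cxcl12 and Icam1 did not pass. The lists of acute phase proteins (3 members with a symbol), cell division (2), cholesterol synthesis (3), fatty acid synthesis (2), bile acids (1), Nrf2 targets (3) and p53 targets (3) had no member past the adjusted p. Interferon, PPAR alpha and sex-biased lists had no member with a symbol.

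The other 3 cohorts received the same dose under other ancestries and share no library with groups 17 and 18. Group 12 against 11 (cohort A, control F0 grandsire and control F1 sire) gave 668 rises (3.52%) and 36 falls (0.189%), group 15 against 14 (cohort B, control F0 grandsire and CCl4-treated F1 sire) gave 664 (3.49%) and 30 (0.158%), and group 21 against 20 (cohort D, F0 grandsire and F1 sire both treated with CCl4) gave 766 (4.03%) and 41 (0.216%). The share of rises in cohort C was 3.35% and that of falls 1.11%, and the difference in these counts was not tested. Of the 637 rises, 417 (65.5%) were also called in cohort A, 355 (55.7%) in cohort B and 437 (68.6%) in cohort D, which are 62.4%, 53.5% and 57% of the rises of those cohorts. Of the 211 falls, 10 were also called in cohort A, 8 in cohort B and 8 in cohort D, which are 27.8%, 26.7% and 19.5% of the falls of those cohorts. The rises had the same sign in 625, 616 and 612 genes in cohorts A, B and D. The falls had the same sign in 71, 58 and 172. The sum of the 137 genes was high in a treated rat of cohort B (animal15002) and in a vehicle rat of cohort D (animal20001), and the highest rat of group 11 or 12 in cohort A was animal12007 at 816.

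**Figure D5:**
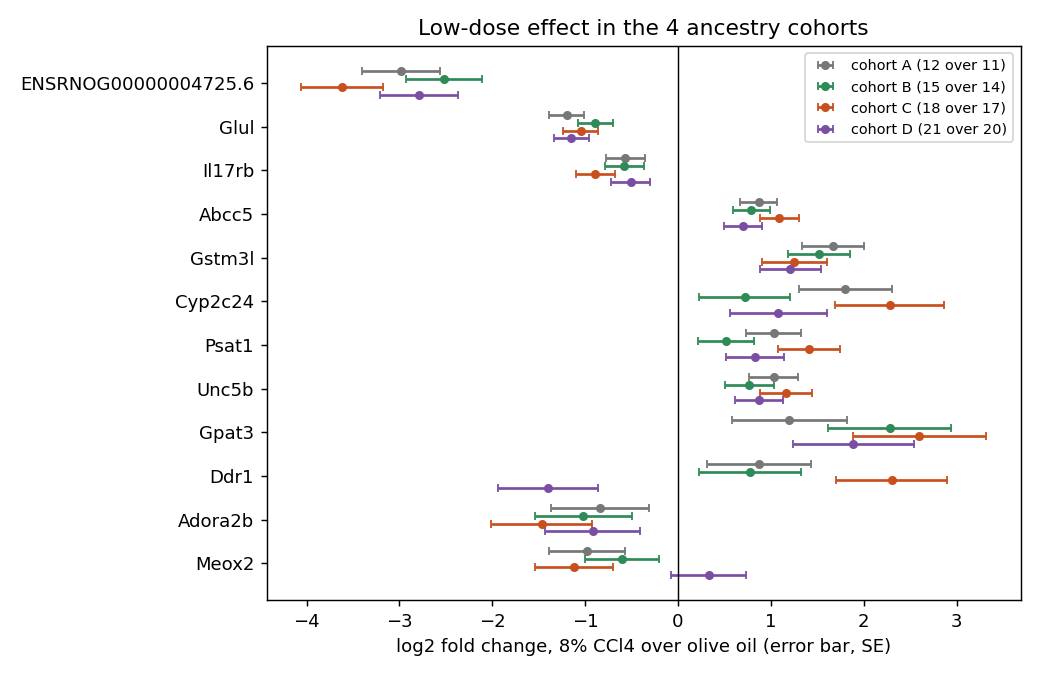
Points give the log2 fold change of 8% CCl4 over olive oil in each cohort, with SE as bars, for 12 genes in rows. Glul and ENSRNOG00000004725.6 are below 0 and Abcc5, Gstm3l and Unc5b above 0 in all 4 cohorts, whereas Ddr1 and Meox2 change sign in cohort D.

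Glul was called lower in cohort A (log2 fold change -1.20 ± 0.19, edgeR adjusted p = 4.87e-06) and cohort D (-1.15 ± 0.19, adjusted p = 9.84e-06), and in cohort B it was -0.89 (adjusted p = 0.000667). ENSRNOG00000004725.6 fell in all of them, by log2 values of -2.98, -2.52 and -2.79. Il17rb was at -0.57, -0.58 and -0.51 in cohorts A, B and D, with edgeR adjusted p of 0.114, 0.101 and 0.176. Gstm3l, Abcc5, Unc5b, Map3k6 and Phldb1 passed the adjusted p in each, and Slfn4 in none. Cyp2c24 was at 1.8, 0.72 and 1.08 (edgeR adjusted p = 0.02, 0.58 and 0.297), passing in cohort A alone. Its vehicle and treated ranges overlapped in cohorts A, B and D, with highest vehicle counts of 339.5, 393.8 and 211.4, against 48.1 in cohort C. Psat1 also passed in cohort A alone (edgeR adjusted p = 0.0299, 0.456 and 0.117). Gpat3 missed in cohort A (0.356) and passed in B and D. Ddr1 was at 0.87, 0.78 and -1.40 and passed in none. The difference between the low-dose effects of cohorts C and A was tested directly. No gene passed an adjusted p of 0.1 with edgeR, at a smallest adjusted p of 0.524, while 800 genes had an unadjusted p under 0.05, limma gave 0 and DESeq2 gave 10. The genes with an unadjusted p under 0.05 included 139 of the 211 falls and 28 of the 637 rises, which were chosen on the same libraries of cohort C, so these counts are a description. A difference between the cohorts in the named genes was therefore not detected, and for Glul the estimate was 0.15 with an adjusted p of 1.

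Group 19, with the same ancestry and 50% CCl4, shares the vehicle rats with this comparison, and its values are set beside the others without a further test. Glul was 6531 to 12050 in group 19, with a median of 11200, close to the 10610 of group 17 and above the 5430 of group 18. Il17rb had a median of 398 in group 19, between the 463 of group 17 and the 253 of group 18. Cyp2c24 had a median of 1325, against 31.8 and 117.6, and Unc5b 2367, against 218 and 499. The medians of Glul and Il17rb were thus lowest at the middle dose, whereas those of Cyp2c24 and Unc5b were highest at the top dose. In the same order of olive oil, 8% and 50% CCl4, the medians of Glul were 14780, 6016 and 11730 in cohort A, 13260, 6875 and 11640 in cohort B, and 11340, 5218 and 8966 in cohort D. The ranges of Glul overlapped between the 8% and 50% groups in cohorts A, B, C and D. The medians of Il17rb in that dose order were 458.9, 323.1 and 531.5 in cohort A and 423.1, 264.7 and 437.1 in cohort B. In cohort D they were 349.9, 229.1 and 430.9. The 50% median of Il17rb was thus above that of olive oil in cohorts A, B and D, unlike cohort C.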

How the data were processed

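RNA of snap-frozen liver was sequenced from stranded mRNA libraries. The authors deposited estimated counts per gene, quantified with Salmon 0.14.0 against Ensembl release 100 and already rounded to whole numbers, together with average transcript lengths per gene and library, another deposited unit (bases). Per the labels, bcl2fastq, R 3.5.0 and DESeq2 were also used. The genome build is not given in the sources used here. Symbols came from a table of the study that pairs 1568 identifiers with names, 1488 of them not empty, and the RefSeq table used here holds no such identifiers.

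From the counts of 31998 genes, 12994 were left out because no liver group reached a total above 10, and the rest were fitted with edgeR 4.0.16 (R 4.3.3) in a model of one mean per group over 83 livers, with TMM scaling and the quasi-likelihood test. Genes were called where the Benjamini-Hochberg adjusted p was under 0.1 and the log2 fold change beyond 1 either way. SE is the log2 fold change divided by the root of the F statistic. Normalised counts are counts scaled by TMM library size to a common total of 40397684 and are not per length, so they compare rats and not genes. They were compared on the log2 scale after adding 1 where correlations or dates were used. Library totals set the counting precision, which is poor for the genes averaging under 10 (139 of the falls and 152 of the rises).

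Named genes were up to 12 called rises and 12 called falls with a symbol and a mean over 50, up to 10 such falls lost without animal17002 (none qualified), up to 2 unnamed genes each way, list members and the genes the study names. Exceptions are marked in the text. One list is not reported here. The members, lists and tests were chosen with earlier results of these data known. Litters and dates come from the animal lists of the study. Same-numbered replicates only share an order of numbering and were not paired, whereas litter was used as a block in an alternative. The labels give separate animals. The alternatives were other normalisation, filters, tools (DESeq2 1.42.0, limma 3.58.1), length offsets, fitted groups, litter or date as a block, and each library left out. The code was tested on simulated data. Promoter windows are RefSeq, GRCr8.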

Additional observations from a re-analysis of the deposited data

Results flagged for a closer look

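Within-group values were screened with Dixon's test at the 95% level in 36 groups of 6 or 7 libraries, and 12 stood apart. The test gives about 1 in 20 by chance for normally distributed values that were not selected. These were untransformed counts of genes chosen by their results, so that rate does not measure how unusual the 12 are. In the vehicle group, animal17007 was high for Gpat3 (158.8 normalised counts) and animal17004 for Psat1 (67.7), Meox2 (654.8), ENSRNOG00000004725.6 (1256.1) and ENSRNOG00000009528.4 (2.8, the others being at 0). In the treated group, animal18006 was high for Ddr1 (1504.9) and Adora2b (162.8), animal18003 for Abcc5 (558), and animal18010 for ENSRNOG00000009528.4 (722.9) and ENSRNOG00000040151.4 (36.4). The summed level of the 137 genes chosen for being highest in animal17002 stood apart there (7367.9), as the choice itself fixes, and in group 18 it stood apart in animal18001 (576.6). The rats animal17002 and animal18001 were littermates, born to the same F1 sire, and were necropsied on the same date, as was their littermate animal17001, which did not stand apart (305.2).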

How the results depend on the processing

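The number of rises kept within 1.5 times of 637 under all but the fit of groups 17 and 18 alone (414) and the fit without animal17002 and animal17004 (423). The falls depended on most choices. They numbered 111 when a group mean above 10 was required, 24 with groups 17 and 18 alone, 135 with necropsy date as a block, 113 with limma quality weights, 120 with DESeq2, 65 at an adjusted p under 0.05, 24 without animal17002 and animal17004, and 84 to 380 when a single library was left out. Calls in both directions went from 848 to 438 with the groups alone, 525 at an adjusted p under 0.05 and 447 without animal17002 and animal17004. The replicate block, in which litter carries the pairing of rats that share an F1 sire, gave 461 calls and 35 falls. The cause of these moves was not tested, beyond fewer samples or fewer genes where the alternative is built so. Genes differing between cohorts C and A stayed at 0 except with DESeq2, which gave 10. Of the log2 fold changes of named genes, 2858 values kept their side of the threshold, 562 no longer passed, 12 newly passed, and none that passed turned its direction. Precision at low counts is limited, since 139 of 211 falls averaged under 10 normalised counts. Names cover few genes, and lists could be read for those members alone.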
